A study of Mus musculus with 6 samples.

Results

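The nuclear lamina genes described here are 6 of the 16383 genes listed in the expression table: Lmna, Lmnb1, Lmnb2, Lbr, Emd and Banf1. They were chosen by name with earlier results of these data known, and the set was selected on the low level of Lmna in cells without Tcf1. The lamina is a meshwork of intermediate filament proteins under the inner nuclear membrane that supports the nucleus and anchors chromatin at its edge. B-type lamins are made in nearly all cells and stay tied to the membrane by a farnesyl lipid, whereas A-type lamins vary widely between tissues and are low in many resting lymphocytes. The receptors and adaptors of the lamina, among them the lamin B receptor and the LEM-domain proteins, join the filaments to membrane and chromatin.

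Mature CD8 thymocytes of mice were sorted by the authors as TCRβ high cells with surface CD8 and without CD69 or CD24, and total RNA was sequenced. Each of 3 genotypes has 2 libraries, namely wild type (WT), Tcf1-/- (Tcf1 KO) and Tcf1-/-Lef1-/- (DKO). The design text names CD4-Cre, a recombinase driven by the Cd4 promoter that acts from the double-positive thymocyte stage on, as the means of deletion. It does not give the age of the mice, nor whether WT mice carried the recombinase, nor whether the 2 libraries of a genotype are 2 mice, so p-values measure a spread between libraries that may be technical. Tcf7 is the gene of Tcf1, which like Lef1 binds DNA through an HMG box and acts in T cell development, and the title asks what their loss does in these cells.

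Levels are FPKM, fragments scaled to transcript length and to the mapped fragments of a library, so levels of different genes can be set side by side. No counts are in the table, and depth, estimated from how low values of short transcripts are spaced, was very roughly 52250000 to 59250000 fragments a library. Lef1 was at 316.1 and 281.9 FPKM in WT, 308.7 and 311.5 in Tcf1 KO, and 130.9 and 130.2 in DKO, and it fell in DKO against WT by 1.19 ± 0.06 (SE) on the log2(FPKM + 1) scale (limma adjusted p = 0.000157). The Lef1 RNA that remained in DKO libraries was not resolved by exon, and Tcf7 was not analysed here. Cd8a was between 516.4 and 656.1 FPKM in the 6 libraries, as the gate calls for. Cd69 RNA was at 27.1 to 39.4 FPKM although the gate excludes the surface protein. Cd4 was at 1.41 and 0.650 FPKM in WT, 15.1 and 6.27 in Tcf1 KO, and 128.9 and 63.7 in DKO. The part of these markers in the levels of the lamina genes was not tested. Markers of stromal and endothelial cells, which are rich in A-type lamin, summed to 53.9 to 55.7 FPKM in WT, 45.2 to 47.2 in Tcf1 KO and 34.8 to 36.5 in DKO. Of that sum, 86.8% to 95.1% came from Eng and Ly75. Without Eng and Ly75 the sum was 2.63 and 2.96 FPKM in WT, 2.89 and 2.54 in Tcf1 KO, and 4.36 and 4.58 in DKO. This rest holds Epcam, at 0.990 and 1.29 FPKM in WT, 1.89 and 1.43 in Tcf1 KO, and 1.99 and 2.21 in DKO. It also holds Cdh5, likewise highest in DKO. Mgp, in contrast, was at 0.410 and 0.600 in WT, 0.0800 and 0.390 in Tcf1 KO, and 0.470 and 0.130 in DKO. The sum therefore gives no common direction for the stromal genes. Of the 19 stromal and endothelial genes, 7 were listed at 0 in every library, among them Col1a2, Col3a1, Dcn and Kdr. In bulk RNA, fewer cells of a type and less RNA per cell cannot be told apart.

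Lmna encodes lamins A and C, the A-type lamins. It was the scarcest member, at 3.51 and 2.45 FPKM in the WT libraries. The Tcf1 KO libraries held 0.710 and 0.660 FPKM and the DKO libraries 0.670 and 0.540. Both WT libraries lay above all 4 mutant libraries, and the Tcf1 KO and DKO libraries overlapped. The mean was 2.98 ± 0.750 (SD, n = 2) in WT, 0.685 ± 0.0354 in Tcf1 KO and 0.605 ± 0.0919 in DKO. The WT mean was therefore 4.35 times the Tcf1 KO mean and 4.93 times the DKO mean. These values chose the set and are given without a test. Beside Eng and Ly75, the stromal genes went different ways. Col1a1 was at 0.450 and 0.280 FPKM in WT, 0.320 and 0.240 in Tcf1 KO, and 0.200 and 0.190 in DKO, whereas Cdh5 was at 0.580 and 0.680, 0.450 and 0.400, and 1.52 and 1.95. Their part in the level of Lmna was not tested.

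**Figure D1:**
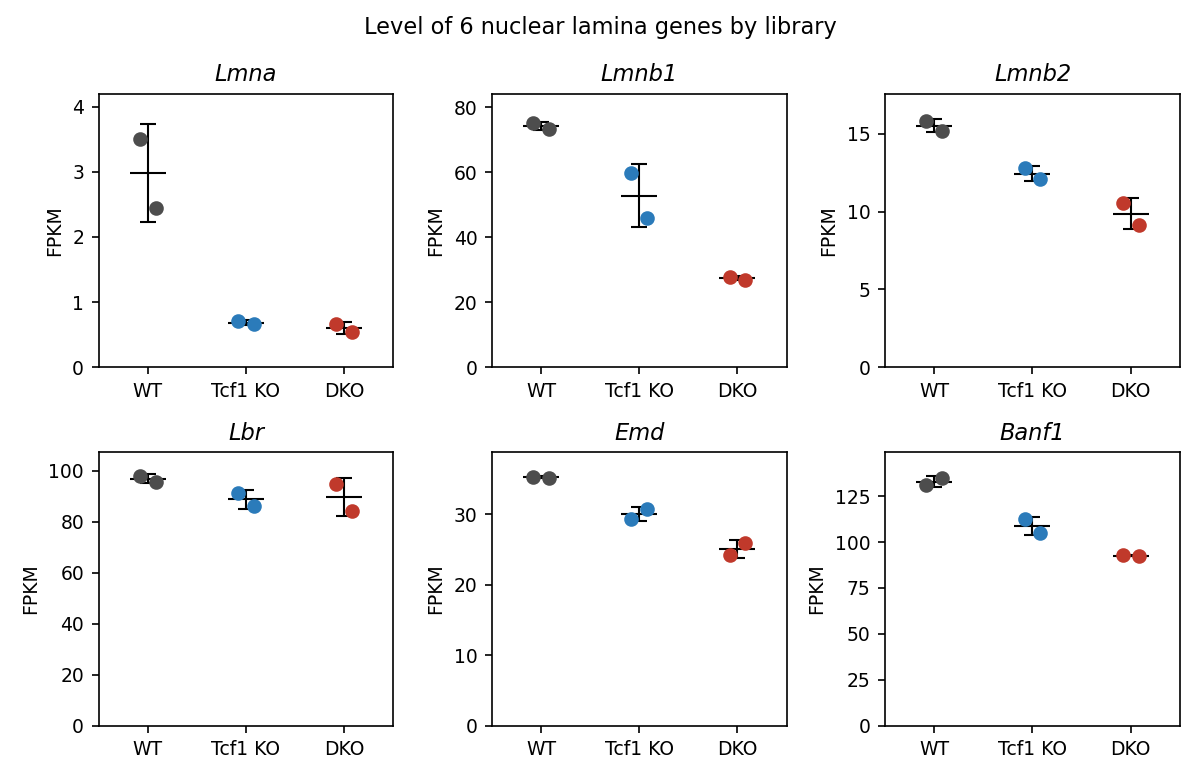
FPKM of the 6 lamina genes (vertical axes from 0, each gene on its own scale) in the WT, Tcf1 KO and DKO libraries. Points are libraries, long bars group means and whiskers 1 SD (n = 2). Lmna lies below 1 FPKM in all 4 mutant libraries, Lmnb1 is lower in each genotype in turn, and Lbr lies between 84.3 and 98.1.

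Lmnb1 encodes lamin B1, the more abundant of the B-type lamins here. It was at 75.2 and 73.4 FPKM in WT, 59.7 and 46.0 in Tcf1 KO, and 27.9 and 27.0 in DKO. The 3 groups did not overlap, and the Tcf1 KO libraries lay apart from each other, the second at 77.0% of the first. The mean fell from 74.3 ± 1.27 FPKM in WT to 27.4 ± 0.622 in DKO (SD, n = 2), which is 36.9% of the WT level. On the log2(FPKM + 1) scale the fall was 1.41 ± 0.12 (SE, 95% interval -1.70 to -1.11, limma adjusted p = 0.000466). From Tcf1 KO to DKO it fell by 0.91 ± 0.12 (-1.20 to -0.62, limma adjusted p = 0.00312). Tcf1 KO libraries held 71.1% of the WT mean, a description without a test because the set was chosen on that contrast.

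Lmnb2 encodes lamin B2, the other B-type lamin. Its level was 15.8 and 15.2 FPKM in WT, 12.8 and 12.1 in Tcf1 KO, and 10.6 and 9.16 in DKO. The 3 groups again lay in that order without overlap. In DKO it fell to 63.6% of the WT mean, a log2 change of -0.61 ± 0.08 (95% interval -0.81 to -0.40, limma adjusted p = 0.00242). Its fall from Tcf1 KO to DKO was 0.31 ± 0.08 (limma adjusted p = 0.0337), and this call did not hold in 9 of 13 other settings, where adjusted p reached 0.143.

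Emd encodes emerin, a LEM-domain protein of the inner membrane that binds lamins and Banf1. It was at 35.3 and 35.2 FPKM in WT, 29.3 and 30.7 in Tcf1 KO, and 24.2 and 25.9 in DKO, again with no overlap. It fell by 0.48 ± 0.06 on the log2 scale from WT to DKO (limma adjusted p = 0.00146) and by 0.25 ± 0.06 from Tcf1 KO to DKO (limma adjusted p = 0.0189). The second of these calls held in 6 of 13 other settings, with adjusted p up to 0.0970.

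Banf1 encodes the barrier-to-autointegration factor, which bridges DNA to LEM-domain proteins and lamins when the nucleus reforms after mitosis. It was the most abundant member, at 130.9 and 135.0 FPKM in WT, 112.3 and 105.2 in Tcf1 KO, and 92.7 and 92.5 in DKO. The groups lay apart in the same order. Banf1 fell by 0.52 ± 0.05 from WT to DKO on the log2 scale (limma adjusted p = 0.000691) and by 0.23 ± 0.05 from Tcf1 KO to DKO (limma adjusted p = 0.0166). The second call held in 10 of 13 other settings, with adjusted p up to 0.0858. Eif1ad overlaps Banf1 in the RefSeq annotation, and whether strand was used in counting is not given, so reads in the overlap cannot be assigned. Eif1ad itself was at 30.0 to 31.7 FPKM in WT and 26.5 to 27.3 in DKO.

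Lbr encodes the lamin B receptor, an inner membrane protein that binds lamin B and heterochromatin and also carries a sterol reductase activity. Its level was 98.1 and 95.8 FPKM in WT, 91.4 and 86.1 in Tcf1 KO, and 94.8 and 84.3 in DKO. Both mutant groups lay below WT but overlapped each other. The change from WT to DKO was -0.11 ± 0.07 on the log2 scale (95% interval -0.29 to 0.06) and did not pass the test (limma adjusted p = 0.214). It passed in 1 of 13 other settings, without DKO replicate 1, at -0.20 (limma adjusted p = 0.0482). From Tcf1 KO to DKO the difference was 0.01 ± 0.07 (-0.16 to 0.18, limma adjusted p = 0.909).

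Of the 5 members that were tested, 4 were lower in DKO than in WT and 4 in DKO than in Tcf1 KO, with Lbr the exception in both. Over all 6761 genes tested, the fit called 49.5% of genes between DKO and WT and 38.4% between DKO and Tcf1 KO. Genes called as lower were 27.8% and 22.6% of all genes tested. The members' median log2 change was -0.52 between DKO and WT, beside -0.03 for all genes, and -0.25 between DKO and Tcf1 KO, beside -0.03. The Tcf1 KO comparison with WT called 2.09% of genes, and 0.754% of all tested as lower, and no call is read from the members there. All 6 members were lower in both libraries of Tcf1 KO than in both of WT, where 30.0% of all genes were, and this contrast chose the set. The 5 members other than Lmna were all lower in DKO than in WT without overlap, beside 41.4% of all genes. Lmna was too, but it is not counted because the set was chosen on its fall from the same WT libraries. Between DKO and Tcf1 KO 4 of these 5 were lower without overlap, beside 37.9%. All 6 members passed the filter on low values, Lmna only through its WT libraries. The comparisons with WT share its 2 libraries, and 2 libraries against 2 cannot give an exact permutation p below 0.333.

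**Figure D2:**
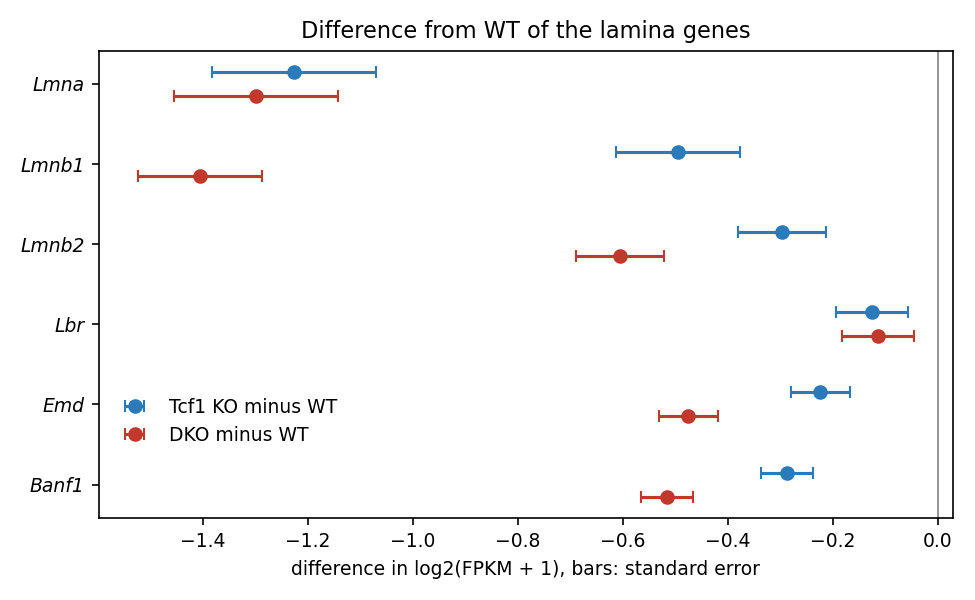
Difference from WT of each lamina gene on the log2(FPKM + 1) scale (horizontal axis), for Tcf1 KO in blue and DKO in red, with the standard error of the limma fit. The Lmna points of both genotypes lie together at -1.23 and -1.30, whereas Lmnb1 lies at -0.50 and -1.41 and Lbr at -0.13 and -0.11.

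The part of the DKO difference from WT that was already present in Tcf1 KO is given for each member as a description. On the log2 scale it was 94.5% for Lmna, 55.7% for Banf1, 49.1% for Lmnb2, 47.1% for Emd and 35.3% for Lmnb1. The place of Lmna at the top was fixed by the choice of the set, which used its low level in Tcf1 KO. These parts were not tested against each other, and Lbr is left out because its differences were small. The difference of Lmna between DKO and Tcf1 KO was -0.07 ± 0.16 (SE, no test).

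The lamin transcripts as a whole were fewer, and their makeup was not the same in the 3 genotypes. Summed over Lmna, Lmnb1 and Lmnb2, the level was 94.5 and 91.1 FPKM in WT, 73.2 and 58.7 in Tcf1 KO, and 39.1 and 36.7 in DKO. Lmna gave 3.71% and 2.69% of the lamin sum in WT, 0.970% and 1.12% in Tcf1 KO, and 1.71% and 1.47% in DKO. Its share was thus lowest in Tcf1 KO, where Lmna was low and Lmnb1 still high. Lmnb2 gave 16.7% of the sum in both WT libraries, 17.5% and 20.6% in Tcf1 KO, and 27.1% and 25.0% in DKO. The ratio of Lmnb1 to Lmnb2 was 4.75 and 4.82 in WT, 4.66 and 3.80 in Tcf1 KO, and 2.63 and 2.95 in DKO. Lbr to Lmnb1 stood at 1.31 and 1.30 in WT, 1.53 and 1.87 in Tcf1 KO, and 3.40 and 3.13 in DKO. B-type lamins outnumbered Lmna by 25.9 and 36.2 to 1 in WT and by 57.4 to 102.1 to 1 in the mutant libraries.

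**Figure D3:**
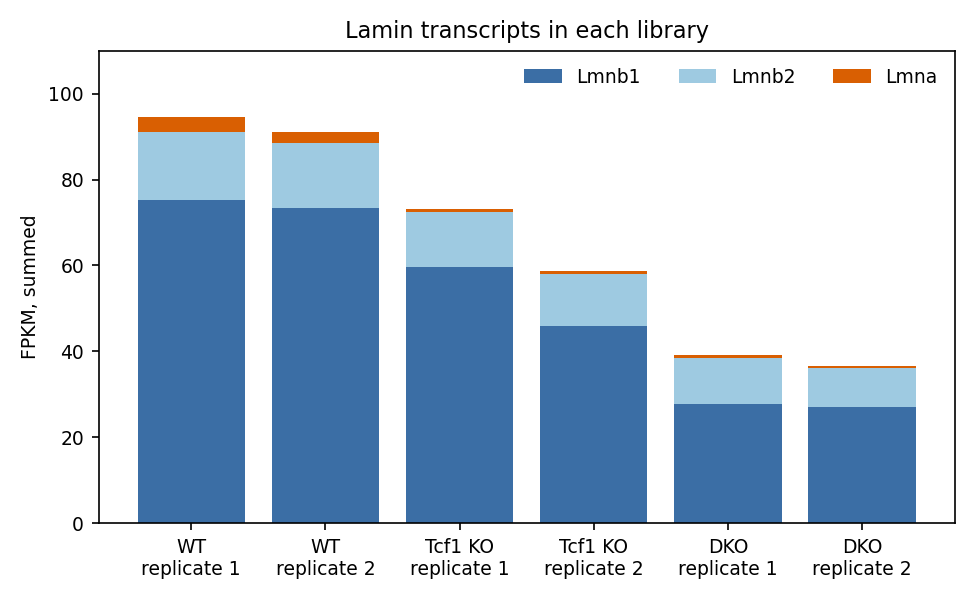
Summed FPKM of the lamin genes in each library (vertical axis from 0), stacked as Lmnb1, Lmnb2 and Lmna. The stack stands at 94.5 and 91.1 in WT and at 39.1 and 36.7 in DKO, with Lmnb1 the largest part throughout, and Lmna is a thin band in every library.

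In WT and Tcf1 KO the order of levels was Banf1, Lbr, Lmnb1, Emd, Lmnb2 and Lmna, with no overlap between neighbours in either group. In DKO, Banf1 and Lbr overlapped, and Lmnb1 at 27.0 to 27.9 FPKM stood just above Emd at 24.2 to 25.9.

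Proliferation genes moved in the same libraries as Lmnb1. Of 31 listed genes of replication and mitosis, 29 fell and 1 rose in DKO against WT by the limma fit. The shares of all genes tested were 27.8% and 21.7%. The list had a median log2 change of -2.64. Mki67, the marker of cycling cells, was at 46.9 and 42.5 FPKM in WT, 28.3 and 16.7 in Tcf1 KO, and 0.930 and 0.680 in DKO, a change of -4.66 ± 0.23 (limma adjusted p = 0.00014). Ccna2 (cyclin A2) fell by 4.20, Ccnb2 (cyclin B2) by 4.19 and Birc5 (survivin, of the chromosomal passenger complex) by 4.14 on the log2 scale. Cdt1, a replication licensing factor, was the 1 that rose, by 0.19 (limma adjusted p = 0.0318), a call lost in 7 of 13 other settings, and Cenpa changed by -0.39 without passing. In Tcf1 KO against WT, 5 of 31 fell, Mcm5, Mcm2, Ccne1, Mcm4 and Mcm6, by 0.49 to 0.69 on the log2 scale. Of all genes tested, 0.754% were called as lower in that comparison. All 31 had a negative log2 change there, beside 51.9% of all genes, with a median of -0.79. The count of calls was 0 without either WT library or without Tcf1 KO replicate 2, and 20 without Tcf1 KO replicate 1. The Mcm genes encode subunits of the replicative helicase and Ccne1 encodes cyclin E1. In the second Tcf1 KO library all 31 were lower than in the first, their sum at 80.5% of it. Abundant genes weigh most in that sum, as Pcna at 219.0 and 189.9 FPKM in these libraries, whereas Mki67 went from 28.3 to 16.7. The sum therefore does not show how closely Lmnb1, at 77.0%, followed single genes. The sums were 1182 and 1158 FPKM in WT, 854.3 and 687.9 in Tcf1 KO, and 432.7 and 406.5 in DKO. Whether the share of cycling cells sets the level of Lmnb1 or any other member was not tested.

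**Figure D4:**
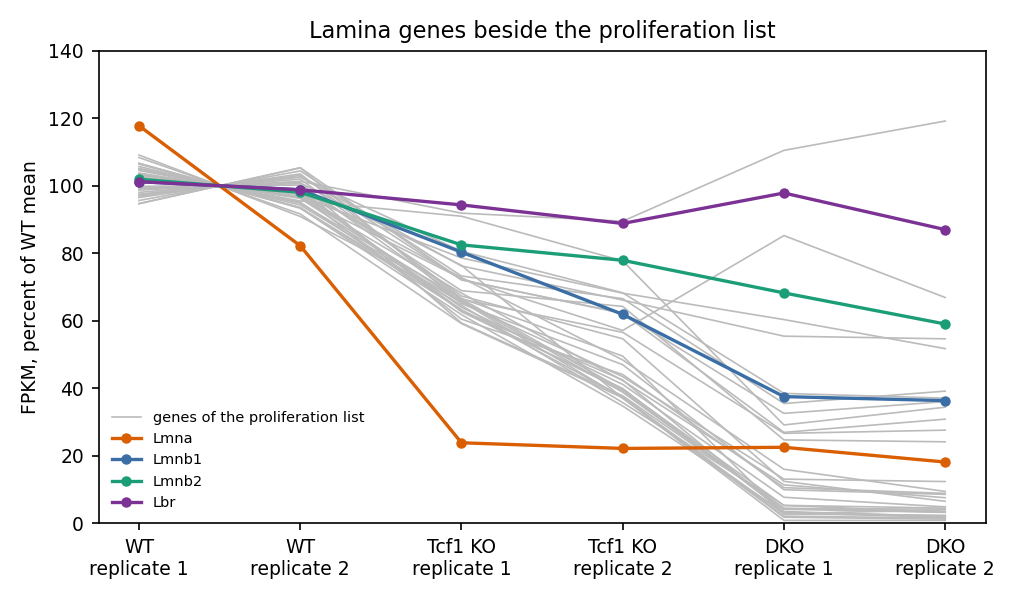
FPKM of 4 lamina genes (coloured) and of the 31 proliferation genes (grey) as a percent of the WT mean (vertical axis) in each library (horizontal axis). Lines join the values of 1 gene and stand for no order of replicates. The DKO mean of Lmnb1 is 36.9% of WT, the Tcf1 KO mean of Lmna is already 23.0%, and Lbr keeps 92.4% in DKO.

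Genes with the pattern most like each member were ranked by Pearson r of log2(FPKM + 1) over the 6 libraries, among 5755 genes, as a description. The libraries share 3 genotypes, so any gene that steps with genotype scores highly. For Lmnb1 the closest were Asf1b, a histone chaperone, at 0.9999, Cenpf, a kinetochore protein, at 0.9993, and Hmgb2, a chromatin protein, at 0.9992, and 1113 genes exceeded 0.9. For Lmna the closest were Adamtsl4, Gdpd3, Icos and Gpr83, at 0.973 to 0.982, and 98 genes exceeded 0.9. Gpr83, a G protein-coupled receptor, went from 7.64 and 5.34 FPKM in WT to 0.800 and 0.670 in Tcf1 KO and 0.0200 in both DKO libraries. Gdpd3, a lysophospholipase D, went from 36.1 and 32.4 in WT to 1.71 and 1.76 in Tcf1 KO and 1.29 and 1.99 in DKO. Lmnb2 was closest to Lcmt1, Cbx3 and Fam134b (0.996 to 0.997), Emd to Enc1, Babam1 and L3mbtl2 (0.996 to 0.999), and Banf1 to Mcm6, Cox5b and Bard1 (0.995 to 0.999). Lbr was closest to Gtdc1, Arf1 and Map2k3 (0.968 to 0.993), with 34 genes above 0.9.

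The other tested genes on a list of inner membrane and LEM-domain genes showed no common direction. Of the 18 symbols on that list 10 were not analysed here, Tmpo, Sun1 and Sun2 among them, so nothing is said of the class as a whole. Among 6 tested genes of that list, 2 rose and 2 fell in DKO against WT by the limma fit. Of all genes tested, 21.7% rose and 27.8% fell. The median change of the list was -0.07, beside -0.03 for all genes. Ankle1, a LEM-domain nuclease, was at 11.7 and 9.74 FPKM in WT, 7.12 and 3.72 in Tcf1 KO, and 0.540 and 0.510 in DKO, a change of -2.93 ± 0.25 (limma adjusted p = 0.000502). Lemd2, a LEM-domain protein that works in nuclear envelope sealing, rose by 0.32 ± 0.05 (limma adjusted p = 0.00285). Lemd3 (MAN1) rose by 0.21 and Nrm (nurim) fell by 0.22, calls that were lost in 6 and 11 of 13 other settings. The fit called 0 of the 6 between Tcf1 KO and WT, beside 2.09% of all genes.

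Of 25 nuclear pore genes tested, 12 fell and 1 rose in DKO against WT. Over all genes tested, 27.8% fell and 21.7% rose. The pore genes had a median log2 change of -0.17, and 8 of their 13 calls held in all other settings. Ndc1, a membrane anchor of the pore, was at 7.08 and 7.84 FPKM in WT and 2.70 and 2.74 in DKO, a change of -1.18 ± 0.10 (limma adjusted p = 0.000411). Nup37 of the Y complex fell by 0.99, and Nup93 and Nup205 of the inner ring fell by 0.76 and 0.73 on the log2 scale. Nup153, a basket protein that binds lamins, was the 1 that rose, from 44.9 and 46.1 FPKM in WT to 63.8 and 63.9 in DKO (0.48 ± 0.04, limma adjusted p = 0.000564). Without either WT library the count of pore genes called was 8. Between Tcf1 KO and WT 0 pore genes were called, beside 2.09% of all genes.

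B-type lamins and the precursor of lamin A need a farnesyl group, which farnesyltransferase adds from a product of the mevalonate pathway. Fntb, the beta subunit of that enzyme, was at 20.6 and 19.2 FPKM in WT, 18.5 and 17.7 in Tcf1 KO, and 5.30 and 4.26 in DKO. It fell by 1.86 ± 0.10 from WT to DKO (limma adjusted p = 0.000169), in all other settings too, whereas Fnta, the alpha subunit shared with another prenyltransferase, rose by 0.20 (limma adjusted p = 0.0204). Of 9 genes of prenylation and its precursors tested, 3 fell and 2 rose, beside 27.8% and 21.7% of all genes, and among the others were Idi1 (-0.48) and Ggps1 (0.31), enzymes of isoprenoid synthesis. Without WT replicate 2 only Fntb of these was called, and without WT replicate 1 there were 3 calls. Between Tcf1 KO and WT the fit called 0 of the 9, beside 2.09% of all genes.

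The kinases and cyclins that act when the lamina is taken apart in mitosis fell in DKO against WT in 6 of 6 tested genes. Among all genes tested, 27.8% fell. The median of the 6 was -3.13, and all but Nek2 are also on the proliferation list. Aurkb (Aurora B) fell by 3.63, Cdk1, the kinase that phosphorylates lamins, by 3.22 and Ccnb1 (cyclin B1) by 3.04 on the log2 scale. Between Tcf1 KO and WT 0 of them passed, beside 2.09% of all genes. All 6 had a negative log2 change there, beside 51.9% of all genes, with a median of -0.89. Among 11 partners that tether heterochromatin, 3 fell and 1 rose in DKO against WT, with a median of -0.09. The 4 calls among 11 stand beside 49.5% of all genes called, and the falls beside 27.8% of all genes. Cbx5 and Cbx3, heterochromatin proteins of which the first binds Lbr, fell by 0.73 and 0.49, and Dnmt1, the maintenance DNA methyltransferase, fell by 0.54. Between Tcf1 KO and WT 0 of these 11 passed, beside 2.09% of all genes.

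**Figure D5:**
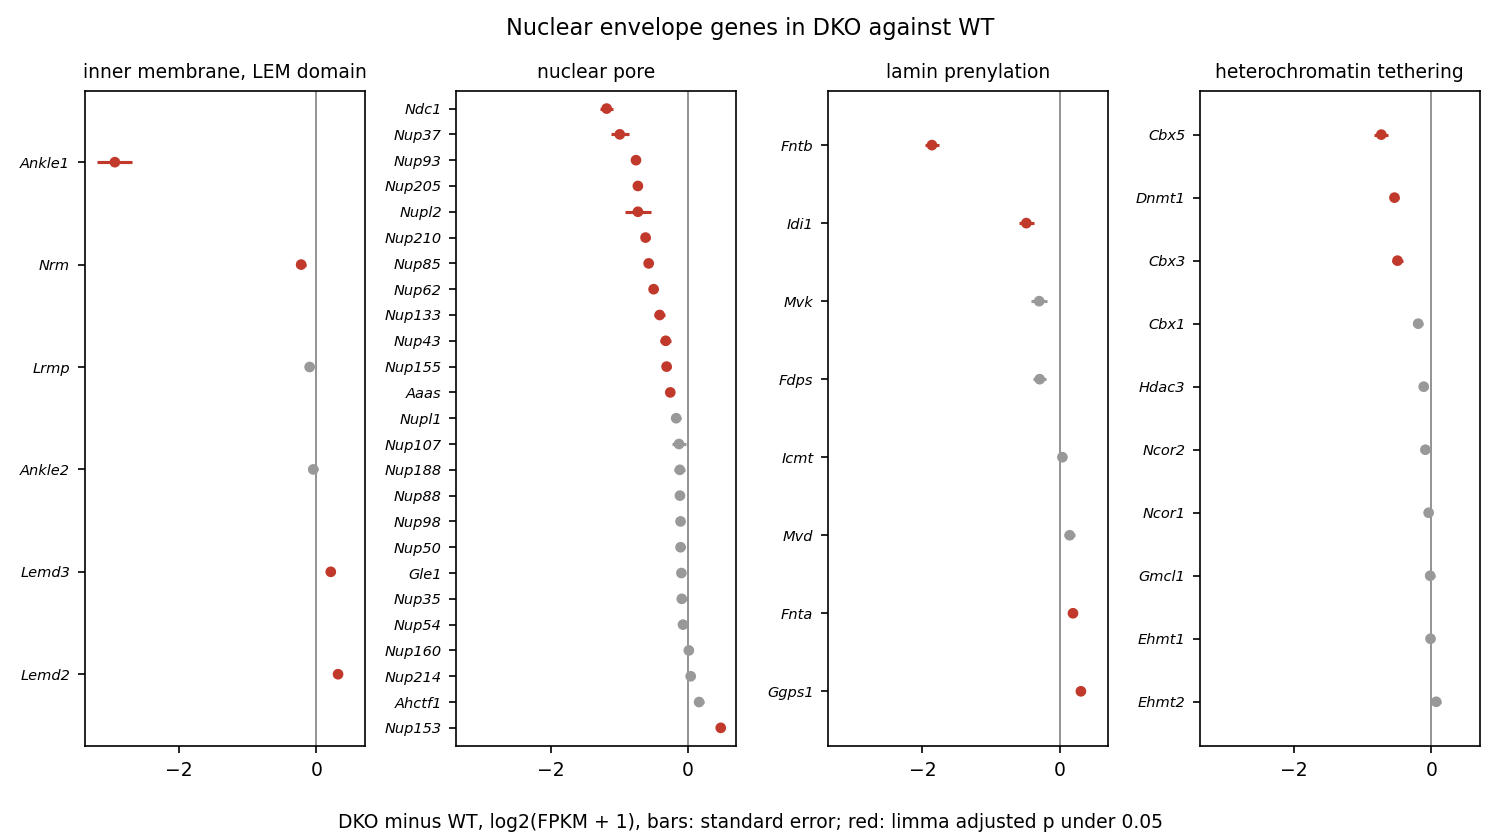
Log2 change from WT to DKO (horizontal axis, log2(FPKM + 1), bars are the standard error of the limma fit) of tested genes of the inner membrane, the pore, prenylation and heterochromatin tethering, of which 2 are not drawn. Red marks an adjusted p under 0.05. Ankle1 at -2.93, Fntb at -1.86 and Ndc1 at -1.18 lie farthest left, and Nup153 at 0.48 is the pore gene called to the right of 0.

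Of the 12 adjacent protein-coding genes by RefSeq start position, 1 on each side of a member, 7 are given here. The others were not analysed here, so Lmna, Lmnb1, Lmnb2, Lbr and Emd were each seen on 1 side. Mex3a, an RNA-binding protein gene beside Lmna, was at 7.05 and 6.61 FPKM in WT, 6.54 and 5.81 in Tcf1 KO, and 4.44 and 3.70 in DKO. It fell by 0.63 ± 0.11 from WT to DKO (limma adjusted p = 0.00489), and its Tcf1 KO mean was 90.4% of WT where that of Lmna was 23.0%. Gadd45b beside Lmnb2 rose by 1.34 ± 0.09 (limma adjusted p = 0.000246) and Flna beside Emd rose by 0.50 ± 0.06 (limma adjusted p = 0.00164), while their neighbours among the members fell. Marchf3 beside Lmnb1 rose by 1.15 (limma adjusted p = 0.0242), with DKO libraries at 2.19 and 5.11 FPKM. Eif1ad beside Banf1 fell by 0.19 (limma adjusted p = 0.0368). Enah beside Lbr and Cst6 beside Banf1 were below 0.3 FPKM in every library and were not tested.

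Promoter sequences are shown for Lmna, the member that was low already in Tcf1 KO, and for Emd, whose window holds a TCF/LEF core. Lmnb1 had no window in the promoter set used and was not searched. For the other 5 members, windows of 300 bases, 250 before and 50 after a RefSeq start (GRCm38.p6), were found, 8 windows in all. They were searched on both strands for CTTTGA and CTTTGAT, the cores bound by TCF/LEF factors, for TTTGAA, the core of a cell cycle element, and for CCAAT, and the capitals mark matches in these windows. Of all 32851 RefSeq windows of this length, 16.0% hold CTTTGA, 3.73% CTTTGAT, 17.9% TTTGAA and 37.4% CCAAT, and a CTTTGAT match contains a CTTTGA match. The first line is the outer Lmna window at chr3:88503303-88503602 (minus strand), and the second is the Emd window at chrX:74254437-74254736 (plus strand).
Lmna: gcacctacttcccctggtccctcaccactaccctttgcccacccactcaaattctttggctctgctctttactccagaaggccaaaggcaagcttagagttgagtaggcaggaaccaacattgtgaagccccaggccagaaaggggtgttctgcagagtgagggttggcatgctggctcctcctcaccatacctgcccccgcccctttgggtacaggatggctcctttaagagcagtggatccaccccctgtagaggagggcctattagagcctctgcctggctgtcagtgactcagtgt
Emd: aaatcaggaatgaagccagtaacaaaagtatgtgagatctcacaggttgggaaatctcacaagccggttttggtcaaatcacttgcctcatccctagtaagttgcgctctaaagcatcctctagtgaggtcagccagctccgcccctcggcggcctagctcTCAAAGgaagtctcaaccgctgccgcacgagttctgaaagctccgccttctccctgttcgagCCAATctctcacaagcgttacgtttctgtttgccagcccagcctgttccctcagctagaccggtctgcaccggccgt
The Lmna window held none of the 4 motifs and 1 CpG, and its inner window held CCAAT only. The Emd window held CTTTGA read on the minus strand at bases 162 to 167 and CCAAT at bases 224 to 228, counted from the 5′ end of the window. The Lbr window held TTTGAA on the minus strand and CCAAT at 2 places, 1 Banf1 window held CCAAT, and the other Banf1 window and both Lmnb2 windows held none. A match describes letters in the window and no binding.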

How the data were processed

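The labels describe total RNA of sorted mature CD8 thymocytes, 6 libraries in 3 genotypes. Per the submitters' processing notes RSEM 1.2.21, FastQC and mouse build mm9 were used. The authors deposited FPKM per gene. The aligner, annotation and strand setting were not given in the sources used here. Since RSEM shares out reads with several matches, near-identical genes have uncertain values. The table ends alphabetically at Pcsk5, and later genes, Tcf7 and others of the lists included, are not analysed here. 13 symbols turned into dates were restored from the accession in the same row. The depth estimate used low FPKM of genes with 1 transcript, 400 to 1000 bases long, and assumed fragments of 200 bases. At the chosen depth, between 59.4% and 67.2% of these values lay within 0.25 of a whole number, where values spread evenly would give 50%. The depth was chosen to bring the same values close to whole numbers, so part of the excess over 50% is built in. Depth is therefore only roughly fixed, and no count test was run. Libraries of a group correlated at 0.9968 (WT), 0.9961 (Tcf1 KO) and 0.9944 (DKO).

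A gene was tested if 2 or more of the 6 libraries reached 1 FPKM (6761 genes, with 9622 set aside). Log2(FPKM + 1) was fitted across all genes with genotype alone as term in limma 3.58.1 (R 4.3.3), with a variance trend, 3 residual degrees of freedom and Benjamini-Hochberg adjustment at 0.05. This scale understates changes of low genes such as Lmna. The fit was tried on simulated data, in which spreads were shuffled among genes and the changed genes were not low. That trial does not cover low genes such as Lmna. Members and lists were chosen with earlier results of these data known, and lists are given as counts. Named list genes are up to 4 called genes with the largest change in DKO against WT and in Tcf1 KO against WT, or up to 2 of the most abundant where none was called, and some genes that the naming rules give are not reported here. Alternatives were another pseudocount, no filter, other scalings, a replicate block, only the groups compared, and leaving out each library. Promoters are RefSeq windows on GRCm38.p6, a later build than that of the table, whose coordinates were not used.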

Additional observations from a re-analysis of the deposited data

How the results depend on the processing

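Between DKO and WT the calls of Lmnb1, Lmnb2, Emd and Banf1 held in all 13 alternatives run, with adjusted p up to 0.0138, 0.0240, 0.0163 and 0.00994. Between DKO and Tcf1 KO, Lmnb1 held in all 13 (adjusted p up to 0.0456) and the number of tested lamina genes called was 4, but 1 without the filter on low values, 2 with median scaling, 2 with only the groups compared, and 1 to 3 leaving out 1 library. The count between DKO and WT was 4 to 5 leaving out 1 library. Over all genes, leaving out 1 library gave 2066 to 3115 calls between DKO and WT in place of 3345, 12 to 177 between Tcf1 KO and WT in place of 141, and 1583 to 2275 between DKO and Tcf1 KO in place of 2599. Without the filter these last 2 were 69 and 1542. The split of DKO calls was 1465 higher and 1880 lower, against 1781 and 1617 with median scaling and 1817 and 1626 with quantile scaling. The untested Lmna difference ranged from -1.95 (pseudocount 0.1) to -1.03 (without WT replicate 1) in Tcf1 KO against WT, and from -0.16 to 0.24 in DKO against Tcf1 KO, positive with quantile scaling. Deviations of libraries with the same replicate number correlated weakly between genotypes (0.0454, 0.154 and 0.147). Whether libraries with the same number were handled together is not given. The replicate block gave 3571, 151 and 2812 calls over all genes, more than the main fit in each comparison. It changed no member's call from WT or Tcf1 KO to DKO.

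Of the gene lists, the proliferation count in Tcf1 KO against WT was 5, but 3 with pseudocount 0.1, 2 with median scaling, 3 with quantile scaling, and 0 to 20 leaving out 1 library. The mitotic kinase count there was 0, and 0 to 5 leaving out 1 library, and that of the inner membrane list 0 to 1. Between DKO and WT, leaving out 1 library gave 2 to 4 for the inner membrane list, 8 to 14 for the pore, 1 to 6 for prenylation, 1 to 6 for sterol synthesis and 5 to 10 for the cytoskeleton. The cause of these changes was not tested. Lmna is below 1 FPKM in the mutant libraries, where values carry few fragments, and groups of 2 give wide intervals.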

Other observations

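The sterol branch that Lbr shares through its reductase activity did not move one way. Of 9 tested enzymes, 3 fell and 1 rose in DKO against WT by the limma fit, beside 27.8% and 21.7% of all genes, with a median log2 change of 0.08. Msmo1, the sterol C4-methyl oxidase, went from 5.97 and 6.47 FPKM in WT to 12.2 and 10.8 in DKO (0.79 ± 0.08, limma adjusted p = 0.000954). Cyp51, Fdft1 and Nsdhl, other enzymes of sterol synthesis, fell by 0.51, 0.50 and 0.33, and without WT replicate 1 or without WT replicate 2 the list had 1 call. In Tcf1 KO against WT 0 of the 9 were called, beside 2.09% of all genes.

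Of 11 tested cytoskeletal genes that are read beside the level of lamin A, 5 rose and 5 fell in DKO against WT. Among all genes tested, 21.7% rose and 27.8% fell. The list had a median of 0.25, and 4 of its 10 calls held in all other settings. Lsp1, an actin-binding protein of leukocytes, rose by 0.55, and Flna (filamin A) by 0.50, whereas Myl6, a myosin light chain, fell by 0.42. In Tcf1 KO against WT 0 of the 11 were called, beside 2.09% of all genes. Of 12 listed genes of cytoplasmic intermediate filaments, relatives of the lamins, 10 were below 0.1 FPKM in all libraries. Vim (vimentin), the main cytoplasmic intermediate filament of T cells, was not analysed here, so nothing is said of the class as a whole, and Krt10, the 1 tested, changed by -0.26 ± 0.14 (limma adjusted p = 0.164).

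Summed FPKM of other marker lists, given as values, were 11.5 to 14.1 in WT, 13.8 to 15.8 in Tcf1 KO and 7.61 to 9.83 in DKO for myeloid genes. For B cell genes they were 20.8 to 21.4, 16.3 to 18.0 and 24.3 to 27.6, and for erythroid genes 14.2 to 14.3, 9.15 to 9.18 and 19.8 to 20.7. Most of the B cell sum was Cd79b, at 17.3 and 18.7 in WT and 20.99 and 23.5 in DKO. Most of the erythroid sum was Car2, at 10.1 in both WT libraries and 16.4 and 16.2 in DKO, while Gata1 was at 3.71 and 3.73 in WT and 2.21 and 2.89 in DKO. The CD4 lineage list stood at 18.2 to 19.7, 32.8 to 45.6 and 162.6 to 215.0. Their part in the levels of the lamina genes was not tested.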
